A study of Mus musculus with 12 samples.

Results

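Nonclassical MHC class I genes encode relatives of the classical class I molecules that vary less between individuals and present special ligands to specialised receptors. 9 of them, H2-Q4, H2-Q6, H2-Q7, H2-T22, H2-T23, H2-T24, H2-M3, Cd1d1 and Mr1, were taken by gene symbol from the 47643 genes of the deposited tables, and each symbol matched exactly 1 gene. Their RNA was measured by bulk poly(A) RNA sequencing of pieces of pancreatic tumor from mice, in 6 libraries labelled Young tumor and 6 labelled Old tumor. Both groups carried KPC4662, a mouse pancreatic ductal adenocarcinoma line labelled epithelial, and differed by the age group of the host. The labels give no genotype, strain, age, sex or site of implantation, and name no treatment. They do not say whether each piece came from a mouse of its own, so p-values measure the spread between these pieces.

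Classical class I molecules, encoded in these tumors by H2-K1 and H2-D1, show cytosolic peptides to CD8 T cells and fold with the light chain beta-2 microglobulin, the product of B2m. Nonclassical molecules use the same light chain but divide the work. H2-Q6 and H2-Q7 encode Qa-2 antigens, H2-T23 encodes Qa-1, which binds the inhibitory CD94/NKG2A receptor, and H2-T22 is a ligand of a subset of gamma delta T cells. H2-M3 presents peptides with a formylated start, as bacteria and mitochondria make them, CD1d presents lipids to natural killer T cells, and MR1 presents riboflavin-related metabolites to mucosal-associated invariant T cells. Interferon gamma, through factors such as IRF1 and NLRC5, is the main known inducer of classical class I genes. In bulk tissue, fewer cells of a type and less RNA per cell cannot be told apart.

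7 of the 9 genes lie on chromosome 17 of GRCm38, the assembly of mm10, in the GENCODE annotation, and all 9 are annotated as protein coding. The Q genes lie on the plus strand, H2-Q4 at chr17:35379617-35385290, H2-Q6 at chr17:35424850-35430055 and H2-Q7 at chr17:35439155-35443773. The T genes lie on the minus strand, H2-T24 at chr17:36005695-36020560, H2-T23 at chr17:36029773-36032855 and H2-T22 at chr17:36037128-36042747. H2-M3 is at chr17:37270220-37274484 on the plus strand. Cd1d1 at chr3:86995834-86999441 and Mr1 at chr1:155127277-155146814, both on the minus strand, are outside that cluster.

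The 250 bases upstream of the RefSeq start (GRCm38.p6) were found for 7 of the 9 genes, all but H2-T24 and Cd1d1. Sequences of 4 are shown, 5′ to 3′ on the strand of the gene, as examples of windows with and without matches to 4 short motifs. Capitals mark matches, on either strand, to an interferon response core (TTTC, any 2 bases, then TTTC), an NF-kB site of class I enhancers (GGGATTCCC), the X2 box (TGACGC) or the Y box (ATTGG). H2-Q6 and H2-Q7 are the Qa-2 pair (chr17:35424600-35424849 and chr17:35438905-35439154, plus strand), H2-T22 holds the interferon response core (chr17:36042743-36042992, minus strand), and Mr1 holds none of the 4 motifs (chr1:155146815-155147064, minus strand).
H2-Q6: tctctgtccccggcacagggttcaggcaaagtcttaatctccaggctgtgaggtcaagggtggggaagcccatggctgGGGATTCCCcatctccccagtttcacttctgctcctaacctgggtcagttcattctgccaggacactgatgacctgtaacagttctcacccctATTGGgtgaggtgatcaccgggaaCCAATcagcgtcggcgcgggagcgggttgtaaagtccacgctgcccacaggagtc
H2-Q7: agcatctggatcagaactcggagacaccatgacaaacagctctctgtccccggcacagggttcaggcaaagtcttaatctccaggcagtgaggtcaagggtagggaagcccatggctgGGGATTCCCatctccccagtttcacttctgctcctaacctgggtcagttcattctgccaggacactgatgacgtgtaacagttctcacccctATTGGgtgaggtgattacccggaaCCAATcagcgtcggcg
H2-T22: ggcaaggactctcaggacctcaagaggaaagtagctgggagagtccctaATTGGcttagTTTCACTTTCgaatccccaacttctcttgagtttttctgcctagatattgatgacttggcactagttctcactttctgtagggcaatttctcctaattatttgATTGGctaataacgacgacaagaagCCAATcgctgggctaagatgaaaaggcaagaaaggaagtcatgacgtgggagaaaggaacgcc
Mr1: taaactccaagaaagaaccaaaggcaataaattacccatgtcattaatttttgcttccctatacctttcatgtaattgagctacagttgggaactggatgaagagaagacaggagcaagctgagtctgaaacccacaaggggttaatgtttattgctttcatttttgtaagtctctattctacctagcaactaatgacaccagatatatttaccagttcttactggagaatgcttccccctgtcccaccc

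The NF-kB letters were found only in H2-Q6 and H2-Q7 among the 7 genes, 172 and 132 bases upstream of the start, and in 0.302% of 32817 mouse windows of that length. The window of H2-Q4 held a similar but longer stretch, gggatttccc, which fell outside the exact letters and was not counted. The windows of H2-Q6 and H2-Q7 were the same at 71.6% of 211 positions when aligned without gaps. Directly after the NF-kB letters H2-Q6 has a base that H2-Q7 lacks, which shifts what follows. This share therefore understates how alike the windows are. The interferon response core was found in H2-T22, 191 bases upstream, and in H2-T23, 124 bases upstream, and in 2.97% of all windows. For H2-T23 the RefSeq start lies inside the gene as GENCODE annotates it (window chr17:36032702-36032951, minus strand). Its matches therefore lie inside the GENCODE gene, not upstream of it. The windows of H2-Q4, H2-Q6, H2-Q7 and H2-M3 held a similar stretch, tttcacttct. It fell outside the pattern of the interferon response core, so it was neither counted nor marked. The X2 letters were found in H2-M3, 46 bases upstream (6.11% of windows), and the Y box in 6 of the 7 genes, all but Mr1 (33.8% of windows). None of these motifs overlap in the windows shown, a match describes letters only, and a missing match says nothing of a factor.

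Library totals ran from 17.8M to 24.1M expected counts, 21.9 ± 1.13M in young and 22.6 ± 2.41M in old libraries (SD over 6 libraries), which did not differ beyond the spread by a two-sided exact permutation test (p = 0.528). Epithelial markers (Krt8, Krt18, Krt19, Epcam and Cdh1) summed to 4406 to 7778 TPM, abundance scaled for transcript length and library, in every library. Old tumor 1 stood apart, at -55.0 on the component that took 18.7% of the variance. It was the highest old library for summed fibroblast (2286 TPM), endothelial (114.5 TPM), leukocyte (361 TPM), T cell (26.4 TPM), B cell (14.8 TPM) and macrophage markers (249.9 TPM), and the lowest for epithelial markers, at 4406 TPM. Results that rest on it are given with and without it. At an adjusted p under 0.05 edgeR called 362 of 16013 genes (2.26%), of which 235 were lower in old tumors (1.47%) and 127 higher (0.793%). The higher share of the calls was 35.1%, against 51.5% with total-count scaling and 85.8% or 87.6% on TPM, which moved the median log2 fold change of all genes from 0.03 to 0.13 or 0.15.

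H2-T23, H2-T22 and H2-Q4 were the most abundant of the 9 genes. Mean TPM over the 12 libraries was 83.6 ± 17.1 for H2-T23, 60.4 ± 11.7 for H2-T22 and 48.8 ± 30.2 for H2-Q4 (SD, n = 12). H2-Q7 followed at 27.1 ± 17.9, H2-Q6 at 17.5 ± 13.4 and H2-M3 at 11.7 ± 3.10 TPM. Cd1d1 at 4.95 ± 1.99, H2-T24 at 2.59 ± 0.55 and Mr1 at 2.27 ± 1.02 TPM were the lowest. H2-T23 exceeded H2-T22 in all 12 libraries, H2-Q4 exceeded H2-Q7, H2-Q7 exceeded H2-Q6 and H2-M3 exceeded Cd1d1 in all 12, and Cd1d1 exceeded H2-T24 in 11. Neighbours that changed places between libraries were H2-T22 and H2-Q4 (8 of 12 in that order, 3 of 6 young and 5 of 6 old), H2-Q6 and H2-M3 (7 of 12, 5 of 6 young and 2 of 6 old) and H2-T24 and Mr1 (9 of 12, 5 of 6 young and 4 of 6 old). In young tumors mean TPM was 65.4 for H2-Q4 and 64.5 for H2-T22, and in old tumors 32.3 and 56.3.

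The 9 genes together summed to 296 ± 89.6 TPM in young and 221.5 ± 69.1 TPM in old libraries (SD, n = 6 each). Set against the classical H2-K1 and H2-D1, which summed to 1351 ± 488.6 TPM in young and 770.9 ± 401.5 TPM in old libraries, this was 22.7 ± 3.05% in young (20.3% to 28.7%) and 31.7 ± 7.63% in old libraries (21.6% to 42.6%). The classical genes were thus the larger part of class I RNA at both ages, and the ranges of the 2 ages overlapped.

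**Figure D1:**
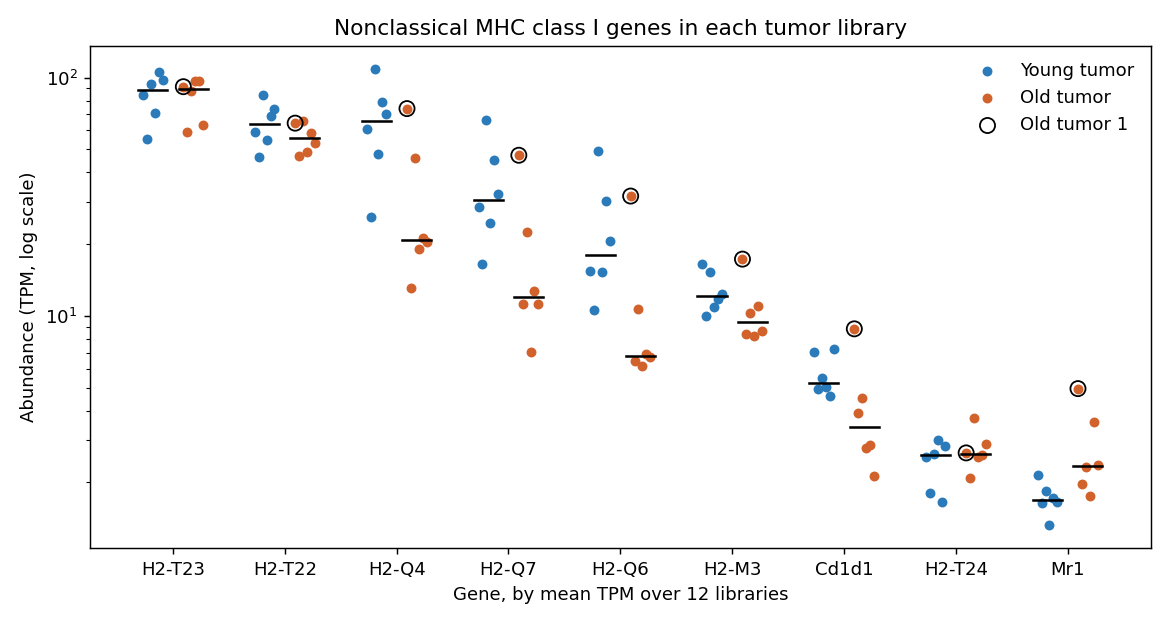
TPM (log axis) of the 9 genes in each library, ordered by mean TPM, with bars at the group medians and a ring around Old tumor 1. For H2-Q4, H2-Q6 and H2-Q7 most old libraries lie below most young ones, with Old tumor 1 well above the other old libraries, whereas H2-T23 and H2-T24 overlap throughout.

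Setting old against young tumors asked whether host age goes with the level of these genes, in a series whose title concerns the exclusion of immune cells. With edgeR, 0 of the 9 genes passed an adjusted p of 0.05, beside 2.26% of all tested genes. At an unadjusted p under 0.05 with edgeR, 3 were lower (H2-Q4, H2-Q6 and H2-T22) and 1 was higher (Mr1), beside 1668 of the 16013 tested genes lower and 1713 higher. DESeq2 called 0, and limma-voom called 2 lower, H2-Q4 and H2-Q6, beside 3.49% of all genes. All 9 genes passed the filter on low counts. Fitted log2 fold changes were below 0 for 7 of 9, with a median of -0.30, beside 45.8% below 0 and a median of 0.03 over all tested genes.

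The Q genes had the largest fitted differences. H2-Q4, a Qa-region gene, was at 34.2 to 133.6 CPM (counts scaled to the size of the library) in young tumors, with a median of 86.2, and at 14.9 to 89.6 CPM in old tumors, with a median of 24.1. 4 of 6 old libraries lay below every young library, and Old tumor 1, at 89.6 CPM, lay above the young median. Old over young, the log2 fold change fitted by edgeR was -1.16 (SE 0.42, adjusted p = 0.138).

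H2-Q6 ranged from 14.0 to 62.0 CPM in young tumors, with a median of 23.7, and from 7.63 to 39.4 CPM in old tumors, with a median of 8.07. 5 of 6 old libraries, at 7.63 to 12.9 CPM, lay below every young library, and Old tumor 1 at 39.4 CPM lay above 4 of the young ones. By edgeR the fold change was -1.15 in log2 (SE 0.47, adjusted p = 0.182).

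H2-Q7 ranged from 18.5 to 78.8 CPM in young tumors, with a median of 34.4, and from 11.4 to 56.7 CPM in old tumors, with a median of 14.3. 4 old libraries lay below every young one, while Old tumor 3, at 29.0 CPM, and Old tumor 1, at 56.7 CPM, lay inside the young range. In log2, the edgeR fold change was -0.85 (SE 0.43, adjusted p = 0.272). Young tumor 3 was the highest young library for all 3 Q genes and Young tumor 2 the lowest. Without Young tumor 3 the fold changes were -0.98, -0.83 and -0.56 for H2-Q4, H2-Q6 and H2-Q7.

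Reads are hard to assign within the Q region. Of the 50-base stretches in the annotated transcripts, 32.0% in H2-Q6, 26.4% in H2-Q7 and 21.8% in H2-Q4 also occurred in another gene. H2-Q6 shared most with H2-Q7 (13.9%) and H2-Q4 (12.3%), and H2-Q7 with H2-Q10 (14.0%) and H2-Q5 (8.74%), so each of these levels is uncertain. H2-Q10 was at 3.91 CPM and H2-Q5 at 3.56 CPM on average over the 12 libraries. The ratio of H2-Q7 to H2-Q6 counts was 1.25 to 1.56 in young and 1.44 to 2.25 in old libraries. Summed, the counts of H2-Q6 and H2-Q7 gave -0.97 in log2 by edgeR (SE 0.45, adjusted p = 0.227).

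The T genes varied less. H2-T22 ranged from 52.1 to 89.7 CPM in young tumors, with a median of 73.5, and from 47.2 to 69.6 CPM in old tumors, with a median of 57.7. Every old library lay below the young median, but only Old tumor 2, at 47.2 CPM, lay below every young library. Fitted by edgeR, this was -0.30 in log2 (SE 0.13, adjusted p = 0.222), and -0.18 on TPM. H2-T22 shared 34.5% of its 50-base stretches, mostly with H2-T10 (31.2%), another gamma delta T cell ligand, which was at 6.49 CPM on average.

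H2-T23 ranged from 53.3 to 109.0 CPM in young tumors, with a median of 87.1, and from 52.4 to 89.5 CPM in old tumors, with a median of 81.4. The ages overlapped almost wholly, and the low libraries were Young tumor 2, Old tumor 2 and Old tumor 6. The edgeR estimate in log2 was -0.16 (SE 0.17, adjusted p = 0.627). It was -0.03 on TPM, -0.27 without Young tumor 2, and -0.07, -0.08 and -0.10 without Young tumor 5, Old tumor 2 and Old tumor 6.

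H2-T24 was low throughout, at 2.45 to 3.68 CPM in young and 2.02 to 3.82 CPM in old tumors, with medians of 2.97 and 3.25. These values rest on 49 to 90 counts per library. Its edgeR estimate of 0.06 in log2 (SE 0.19, adjusted p = 0.881) changed sign, to -0.055, with limma-voom and to -0.0062 without Old tumor 3.

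H2-M3, the presenter of formylated peptides, ranged from 9.003 to 15.2 CPM in young tumors, with a median of 11.03, and from 6.77 to 14.5 CPM in old tumors, with a median of 7.66. 5 of 6 old libraries lay below every young library, and Old tumor 1 lay above all young libraries but Young tumor 1. The edgeR estimate was -0.40 in log2 (SE 0.20, adjusted p = 0.271). H2-M3 shared 0.576% of its 50-base stretches with other genes, so its level is little affected by similar sequence.

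Cd1d1, the lipid presenter, ranged from 2.96 to 6.68 CPM in young tumors, with a median of 4.29, and from 1.82 to 9.03 CPM in old tumors, with a median of 3.08. Old tumor 1 was the highest of all 12 libraries, and 3 old libraries lay below every young one. Its edgeR estimate was -0.19 in log2 (SE 0.34, adjusted p = 0.794), and ran from -0.03 without Young tumor 1 to -0.65 without Old tumor 1, with -0.04, -0.089 and -0.092 without Old tumor 6, Old tumor 4 and Old tumor 5. On TPM it was -0.47 or -0.58 by pseudocount, and -0.41 with limma-voom, and it passed in none of these. Its near copy Cd1d2, with which it shared 19.1% of its 50-base stretches, had at most 5.20 counts in any library.

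Mr1 was the gene with the largest fitted difference in the other direction. It ranged from 2.41 to 3.92 CPM in young tumors, with a median of 3.04, and from 2.88 to 8.45 CPM in old tumors, with a median of 3.65. Old tumor 1 at 8.45 CPM and Old tumor 5 at 5.74 CPM lay above every young library, and the other 4 lay inside the young range. In log2 the edgeR estimate was 0.58 (SE 0.26, adjusted p = 0.216), 0.30 without Old tumor 1 and 0.14 without Old tumor 1 and Old tumor 5. No 50-base stretch of Mr1 occurred in another gene.

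Leaving out Old tumor 1 changed which genes passed. Without it, edgeR called 4 of the 9 genes lower, beside 4.17% of all tested genes. The edgeR estimates in log2 were then -1.63 for H2-Q4 (SE 0.36, adjusted p = 0.0225) and -1.83 for H2-Q6 (SE 0.35, adjusted p = 0.0137). They were -1.37 for H2-Q7 (SE 0.35, edgeR adjusted p = 0.0369) and -0.62 for H2-M3 (SE 0.15, edgeR adjusted p = 0.0312). Cd1d1 was then at -0.65 (edgeR adjusted p = 0.108). Without Old tumor 1 and Old tumor 5, 3 genes were lower (H2-Q4, H2-Q6 and H2-M3), beside 2.45% of all genes. Old tumor 1 also held the most leukocyte, T cell and fibroblast marker RNA of the old libraries, and the part of that in these results was not tested.

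**Figure D2:**
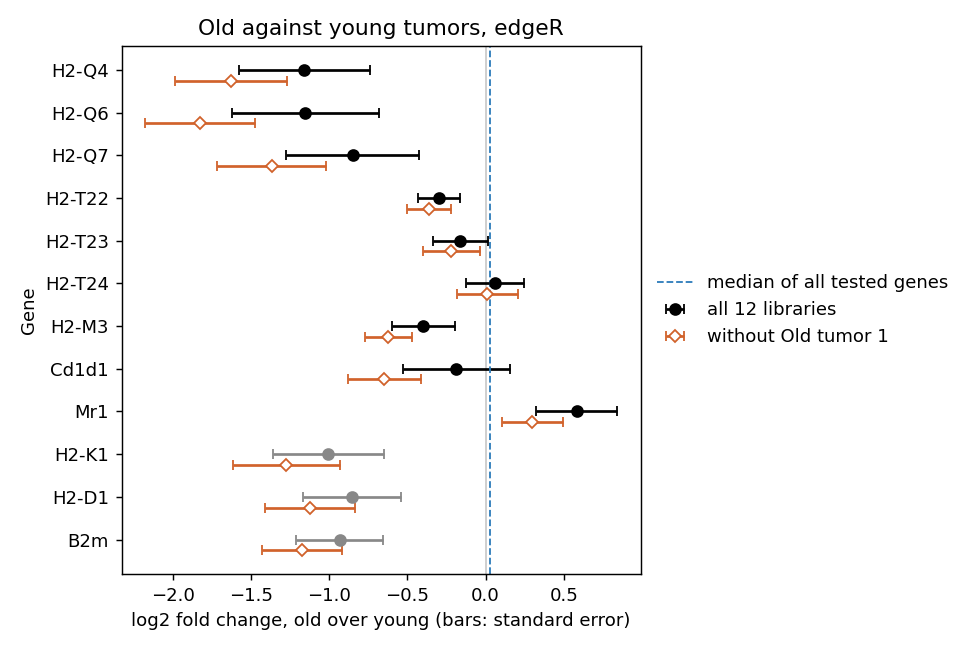
Log2 fold change, old over young, of the 9 genes and of H2-K1, H2-D1 and B2m, with edgeR standard errors, in all 12 libraries (filled) and without Old tumor 1 (open). Without Old tumor 1 H2-Q4, H2-Q6 and H2-Q7 move from -1.16, -1.15 and -0.85 to -1.63, -1.83 and -1.37, and Mr1 moves from 0.58 to 0.30.

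The classical genes and the light chain had fitted differences near those of the Q genes in size. H2-K1 was at -1.01 (SE 0.36), H2-D1 at -0.86 (SE 0.31) and B2m at -0.93 (SE 0.28), with edgeR adjusted p of 0.129, 0.143 and 0.0859. Without Old tumor 1 all 3 passed, at -1.27, -1.12 and -1.17 (edgeR adjusted p = 0.0441, 0.0381 and 0.0224). B2m also passed with DESeq2 (adjusted p = 0.0111), and all 3 with limma-voom. Taken as a ratio to B2m in the same library, the log2 level of H2-Q4 differed by -0.30, of H2-Q6 by -0.26 and of H2-Q7 by 0.05 between old and young tumors. The same difference was 0.73 for H2-T22, 0.87 for H2-T23, 1.07 for H2-T24, 0.59 for H2-M3, 0.68 for Cd1d1 and 1.499 for Mr1. All other tested genes had a median of 1.04 on this scale, since B2m itself was lower, so H2-T23 lay below that median. H2-T23 was the gene of the 9 whose ratio was higher in every old than in every young library, as in 4.94% of all genes. These ratios are descriptions, with no test.

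Across the 12 libraries the 9 genes differed in how closely they followed B2m. 18 relations of log2 CPM are given here, each gene with B2m and with Ptprc, a marker of all leukocytes, with p adjusted over the 27 computed. Of the 18, 8 had an adjusted p below 0.05 by Pearson's r and 6 by Spearman's rho. H2-Q4 followed B2m with r = 0.98 (permutation p = 1e-05, the smallest 100000 resamples can give; adjusted p = 0.00027) and rho = 0.96 (permutation p = 1e-05). Without the 2 libraries farthest from the B2m median, Old tumor 2 and Old tumor 6, r was 0.97, and it was 0.94 within young and 0.97 within old tumors (exact permutation p = 0.0111 and 0.00278).

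H2-Q6 and H2-Q7 followed B2m with r = 0.89 and 0.90 (permutation adjusted p = 0.000771 and 0.000648; rho = 0.95 and 0.91). H2-T22 did so with r = 0.89 (permutation adjusted p = 0.000648; rho = 0.87). H2-M3 followed B2m with r = 0.86 (permutation adjusted p = 0.00162; rho = 0.90), at 0.71 within young and 0.83 within old tumors. For H2-T23 and B2m, r was 0.69 and rho 0.70 (permutation adjusted p = 0.0285 for r). The pooled r was 0.38 without Old tumor 2 and Old tumor 6 (permutation p = 0.286), while r was 0.98 within young and 0.68 within old tumors (exact permutation p = 0.00694 and 0.135).

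H2-T24, Cd1d1 and Mr1 had no relation to B2m that passed. Their r with B2m was 0.33, 0.51 and -0.02 and their rho 0.09, 0.47 and -0.06 (permutation adjusted p = 0.335, 0.125 and 0.947 for r). For Mr1, r was 0.46 within young and 0.60 within old tumors (exact permutation p = 0.381 and 0.190), so its pooled r differs in sign from those within ages. With Ptprc, r was 0.69 for Cd1d1 and 0.72 for H2-M3 (permutation adjusted p = 0.0270 and 0.0227). Their rho with Ptprc, 0.64 and 0.60, did not pass (permutation adjusted p = 0.0614 and 0.0819). Without Old tumor 1 and Young tumor 3, r was 0.61 and 0.54 (permutation p = 0.0595 and 0.104). Mr1 and Ptprc had r = 0.58 and rho = 0.59 (permutation adjusted p = 0.0719 for r). For H2-Q4, H2-Q6, H2-Q7, H2-T22, H2-T23 and H2-T24, r with Ptprc was 0.52, 0.53, 0.60, 0.49, 0.23 and 0.39. None of these passed (smallest permutation adjusted p = 0.0719, for H2-Q7). Within old tumors r with Ptprc ran from 0.26 (H2-T23) to 0.94 (H2-M3), and within young tumors from 0.18 (H2-T23) to 0.66 (H2-M3). The values within old tumors include Old tumor 1, the highest library for Ptprc at 75.0 CPM, and its part in them was not tested.

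**Figure D3:**
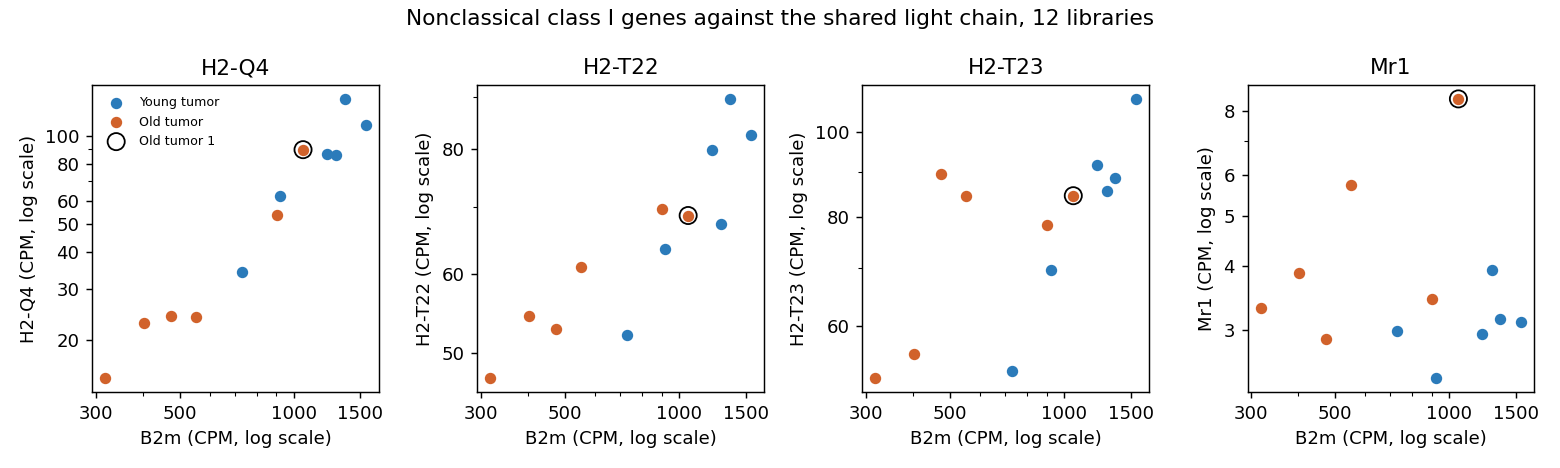
CPM of H2-Q4, H2-T22, H2-T23 and Mr1 against CPM of B2m in 12 libraries (both axes log), with Old tumor 1 ringed. H2-Q4 follows B2m along 1 line in both ages (r = 0.98), whereas Mr1 does not (r = -0.02) and Old tumor 1 has its highest value.

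With age group means subtracted, the 9 genes differed in which of the others they varied with over the 12 libraries. H2-Q6 and H2-Q7 had r = 0.98 and H2-Q4 had r = 0.91 and 0.94 with them, although shared reads can raise these values. H2-Q4 also had r = 0.98 with H2-K1. H2-M3 and Mr1 had r = 0.87, and H2-M3 and Cd1d1 r = 0.74. Cd1d1 had r = 0.08 with H2-T23 and 0.11 with H2-T22. These values are descriptions over libraries that share depth and tissue makeup. They include Old tumor 1, the highest old library for H2-M3, Cd1d1 and Mr1, and its part in them was not tested.

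**Figure D4:**
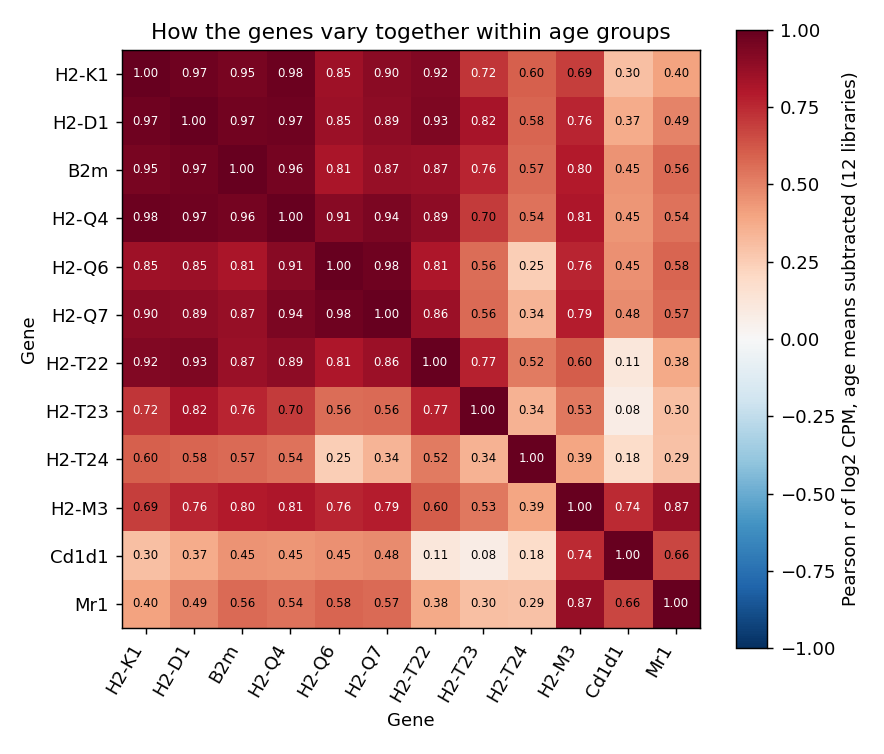
Pearson r of log2 CPM over 12 libraries, with age group means subtracted, between the 9 genes, H2-K1, H2-D1 and B2m. H2-Q4, H2-Q6, H2-Q7 and H2-T22 have r of at least 0.81 with B2m, whereas Cd1d1 has 0.08 with H2-T23 and H2-M3 has 0.87 with Mr1.

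On the same scale, the 3 genes most like each member were picked from the tested genes other than the 9, leaving out symbols of predicted or clone type. Picked as the largest of many over 12 libraries, these r values are high by selection, and none was tested. They were H2-K1 (r = 0.98), Zbp1 and H2-D1 for H2-Q4, Cd274 (0.94), Clec7a and Bbs4 for H2-Q6, and H2-Q5 (0.95), Cd200r4 and H2-DMb1 for H2-Q7. For the T genes they were Cd3e (0.96), Tap1 and Irgm2 for H2-T22, Alas1 (0.94), Icam1 and Tapbp for H2-T23, and Zfp362 (0.86), Socs1 and Tgtp1 for H2-T24. They were Sp110 (0.95), Ankrd33b and Cd200r1 for H2-M3, Cfp (0.96), Lpar4 and Gngt2 for Cd1d1, and Glipr2 (0.95), Nr4a3 and Ostm1 for Mr1. Some differed between ages. Tgtp1 with H2-T24 had r = 0.37 within young and 0.97 within old tumors, and Alas1 with H2-T23 had 0.99 and 0.89.

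Genes that work with these molecules were counted from 9 lists, to be read against the counts over all genes above (235 called lower and 127 higher, and 1668 lower and 1713 higher at an unadjusted p under 0.05). In the immunoproteasome list, the subunits and regulators that interferon adds to proteasomes, edgeR called 2 of 5 tested genes lower in old tumors. At an unadjusted p under 0.05 all 5 were lower. The largest fitted differences, Psmb8 (-1.03) and Psmb9 (-0.94), were not called (edgeR adjusted p = 0.0912 and 0.165). Psmb10 went from 52.2 ± 8.33 to 34.7 ± 5.43 CPM (SD over 6 libraries), which is -0.59 in log2 (edgeR adjusted p = 0.0353). Psme2 went from 99.9 ± 12.4 to 72.5 ± 10.95 CPM (-0.46, edgeR adjusted p = 0.0437), and Psme1 was at -0.34 (edgeR adjusted p = 0.0550). Both calls were near the threshold: with 1 library left out, Psmb10 passed in 3 of 12 fits (without Young tumor 2, Young tumor 3 or Old tumor 1) and Psme2 in 1 (without Old tumor 1), and neither passed on TPM. The list's median log2 fold change was -0.59, beside 0.03 over all genes.

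None of the other 8 lists held a gene called by edgeR. At an unadjusted p under 0.05, all 3 genes of the classical and light chain list were lower, and 2 of 19 transcription genes were lower and 1 higher. Of 8 interferon receptor and signalling genes 2 were higher, Jak1 and Tyk2, neither of which encodes a receptor. The CD1d loading list and the list of other class I-like genes each had 1 lower and 1 higher, and the unconventional T cell list had 0. In the peptide loading and trimming list, which supplies Qa-1 and H2-M3 as well as classical molecules, 12 genes were tested, 2 lower and 2 higher at an unadjusted p under 0.05. Its smallest p belonged to Ide (0.18), Tap2 (-0.62), which pumps peptides into the endoplasmic reticulum, and Nrd1 (0.14), given as log2 fold changes. Among 19 genes listed for the control of class I transcription, in either direction, the smallest p belonged to Ezh2 (-0.25), Irf1 (-0.35) and Rfxank (0.21), with a median of -0.03. Among 8 interferon receptor and signalling genes they were Jak1 (0.18), Tyk2 (0.19) and Socs1 (-0.30).

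For the receptors, 9 genes were tested, of which 4 were lower and 0 higher at an unadjusted p under 0.05. Cd160 (-1.07), Cd8a (-1.28) and Klrd1 (-1.21), the CD94 chain of the Qa-1 receptor, had the smallest p, with edgeR adjusted p of 0.0655, 0.105 and 0.172. Of the unconventional T cell list 7 genes of 18 in the table passed the filter, with Cxcr6 (-0.54) and Il18r1 (-0.35) among those of smallest p. Among 14 genes that load lipids onto CD1d the smallest p belonged to Ap3d1 (0.17), Ctsl (-0.32) and Npc2 (-0.19). Among 13 other class I-like genes they were H2-T10 (-0.72), Mill2 (0.56) and H2-M2 (-0.46). The summed T cell markers ranged from 11.8 to 34.0 TPM in young tumors (median 25.8) and from 5.55 to 26.4 TPM in old tumors (median 9.185). All 5 had a log2 fold change below 0, with a median of -0.98, beside 45.8% of all tested genes below 0. Of the 5, 0 were called, and the part of T cells in these values was not tested.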

How the data were processed

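RNA was isolated from tumor pieces with a kit, kept where the RNA integrity number was above 8, and made into directional poly(A) libraries, per the labels' protocols. cutadapt 2.3, STAR 2.7.0d, RSEM 1.3.1 and the build mm10 are named in the submitters' processing notes. The sources used here do not give read length, annotation or strand setting. Expected counts and TPM per gene are as the authors deposited them, and RSEM shares reads among similar genes, which makes H2-Q, H2-T and Cd1d genes uncertain. The deposited expected counts were rounded before testing.

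Old and young libraries were compared with edgeR 4.0.16 (R 4.3.3; TMM, filterByExpr, quasi-likelihood F test, two-sided, Benjamini-Hochberg over 16013 genes, threshold 0.05), with 6 libraries per age and no covariate. The standard error is the log2 fold change divided by the square root of F. CPM uses TMM-scaled totals, and log2 CPM a prior count of 2. Each pair of libraries of an age differed beyond sampling noise (chi-square per degree of freedom at least 15.5). DESeq2 1.42.0, limma 3.58.1 (voom with weights; TPM plus 1 or 0.1), other scalings and filters, a replicate block, Ptprc as a covariate, a length correction and left-out libraries were alternatives. Correlations used permutation tests (scipy 1.17.1). The edgeR script was tested on simulated data.

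The members and lists were chosen with earlier results of these data known. Named genes are the 9 members, the 3 genes of smallest p in each list, the 3 most like each member by r, and genes sharing their sequence, of which some are not reported here; genes outside that rule, such as those in the last paragraph of the closing section, were picked after their values were seen. Shared stretches were counted in GENCODE transcripts of GRCm38, and promoter windows came from RefSeq.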

Additional observations from a re-analysis of the deposited data

Results flagged for a closer look

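In 3 of the 18 groups of 6 libraries tested (each of the 9 genes at each age), 1 library lay farther from the rest than Dixon's critical value for the gap over the range. Chance flags about 1 in 20 groups, and all 3 were Old tumor 1, so they are not independent. H2-Q6 was at 39.4 CPM there, against 12.9 CPM in the next old library (gap 0.834 of the range). H2-M3 was at 14.5 CPM, against 8.94 CPM in the next (0.720). Cd1d1 was at 9.03 CPM, against 3.71 CPM in the next (0.738). In H2-Q7 the same library, at 56.7 CPM, had a gap of 0.611 and stayed below the critical value.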

How the results depend on the processing

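The count of genes called, 362, became 1425 with DESeq2, 977 with limma-voom, 151 with no filter, 111 with the length trend removed, 742 without Old tumor 1 and Old tumor 5 and 1256 at an adjusted p under 0.1. Leaving out 1 library gave 2 (without Old tumor 3) to 1106 (without Old tumor 1). The count among the 9 genes, 0, became 2 with limma-voom and 3 without Old tumor 1 and Old tumor 5, and was 0 to 4 with 1 library left out. The count in the companion lists, 2, became 6 with DESeq2, 12 with limma-voom, 9 without Old tumor 1 and Old tumor 5 and 6 at an adjusted p under 0.1. It became 1 with upper-quartile scaling, total counts, no filter, TPM with either pseudocount or the length trend removed, and was 0 to 15 with 1 library left out. H2-T24 changed sign with limma-voom (-0.055) and without Old tumor 3 (-0.0062; 0.16 without Old tumor 2, the other end of that range), and the r of Mr1 with B2m changed from -0.02 to 0.56 with age means subtracted. Of 225 settings over the 9 genes, 214 kept direction and side of the threshold. With a replicate block, 1 gene was called in all, 0 of the 9 genes and 0 in the companion lists. The replicate numbers did not pair the libraries: same-number correlations ran from -0.23 to 0.14, and number 3 was the only one whose libraries matched each other best. H2-T24, Mr1 and Cd1d1 rest on 33 to 216.6 counts per library.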

Other observations

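Values of the Qa-1 receptor were looked at after the data had been seen. Klrc1, which encodes the NKG2A chain, was at 27.1 to 57.5 TPM in every library, with a mean of 40.5 ± 10.9 over the young and 35.0 ± 6.03 over the old libraries (SD, n = 6). Klrd1, which encodes its CD94 partner, was at 0.75 to 6.71 TPM, and Klrc2, a related activating chain, at 2.80 to 6.83 TPM. Ncr1, a marker of natural killer cells, was at most 0.37 TPM. Of genes used by unconventional T cells, Zbtb16 had 0 to 29 and Trdc 0 to 36 counts per library, whereas Tcrg-C1 had 13.2 to 61.6. Ifng had 0 to 8 counts per library.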
